A study of Mus musculus with 55 samples.

Results

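The genes described here are 10 that are commonly used to recognise fibroblasts of the portal tract and of vessel adventitia: Thy1, Cd34, Cd248, Entpd2, Pi16, Dpt, Eln, Fbln2, Mfap4 and Clec3b. They were taken by symbol from a table of transcript abundance with 24478 symbols, and all 10 were found and passed the filter on low values. The table covers 10 populations sorted from mouse liver: 27 libraries are from unoperated animals (normal liver) and 28 are from animals after partial hepatectomy (PH, surgical removal of part of the liver, after which the remainder regrows). All mice were C57B/L6, with no transgene named and no age, sex or time after surgery given in the labels.

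The populations are a Thy1 sort, "non progenitor ducts" (NPD), hepatic stellate cells (HSC), endothelial cells (EC), liver sinusoidal endothelial cells (LSEC), clonal biliary epithelial cells (cBEC), biliary epithelial cells (BEC), hepatocytes (HC), Kupffer cells (KC) and blood cells. Thy1 and NPD have 2 libraries each in normal liver and 2 each after PH, and HSC have 2 and 3. EC have 2 normal libraries and 3 after PH, and LSEC have 3 and 5. cBEC and BEC have 4 and 2 each, HC 4 and 4, KC 2 and 3, and blood 2 and 2. Nothing in the labels says that libraries of a group came from separate animals, so p-values measure the spread between these libraries, which may be technical. Values are FPKM, fragment abundance scaled for transcript length and library size, and the read depth behind them is unknown.

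As background, the liver has several mesenchymal cell types. Stellate cells lie along the sinusoids and store vitamin A, whereas portal fibroblasts lie in the connective tissue around bile ducts and portal vessels, where they make elastic and collagen fibres. Thy1 (CD90) is a GPI-anchored surface protein that marks portal fibroblasts in liver, but also T cells and neurons, so a sort on it need not be pure. Both fibroblast types can become matrix-producing myofibroblasts after injury.

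The label of the Thy1 sort was set against marker lists. Some of its fibroblast markers were far higher than in NPD: the receptor gene Pdgfra stood at 39.1 and 39.3 FPKM in the normal Thy1 libraries against 2.38 and 1.33 in NPD, and Col15a1, a basement membrane collagen, at 25.1 and 33.0 against 0.575 and 0.317. Others were not: Igfbp6 stood at 1107 and 1236 in the Thy1 sort and at 2955 and 2569 in NPD, and Pdgfra was higher still in normal HSC, at 99.4 and 120.8. Lrat, the vitamin A esterifying enzyme, defines stellate cells. It stood at 1.93 and 2.26 in the Thy1 sort against 295 and 538 in normal HSC. Some stellate genes were less far apart: Reln stood at 202 and 8.24 against 536 and 848, and Cygb at 117 and 128 against 179 and 163. Of the 20 stellate genes tested, 19 were lower in the Thy1 sort and 0 higher by limma (adjusted p under 0.05), where 6.28% of all genes were called lower. The T cell gene Cd3e stood at 0.998 and 0 FPKM in normal Thy1 libraries and at 4.82 and 0.625 after PH. Of 12 T cell genes tested, 3 were higher by limma in the normal Thy1 sort than in HSC (27.2% of all genes). Against NPD 1 was higher (7.1%). After PH, 8 were higher than in HSC (24.9%) and 6 than in NPD (7.56%). Between PH and normal Thy1, 2 were higher after PH (3.91%). The sort was mixed. The mesothelial gene Msln reached 770 and 715 FPKM, the endothelial gene Pecam1 251 and 246, and the duct gene Epcam 5.78 and 86.0. The NPD sort also went beyond its label, with Msln at 2074 and 1548 beside Epcam at 42.8 and 39.3. In bulk libraries such as these, fewer cells of a type and less RNA per cell cannot be told apart.

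**Figure D1:**
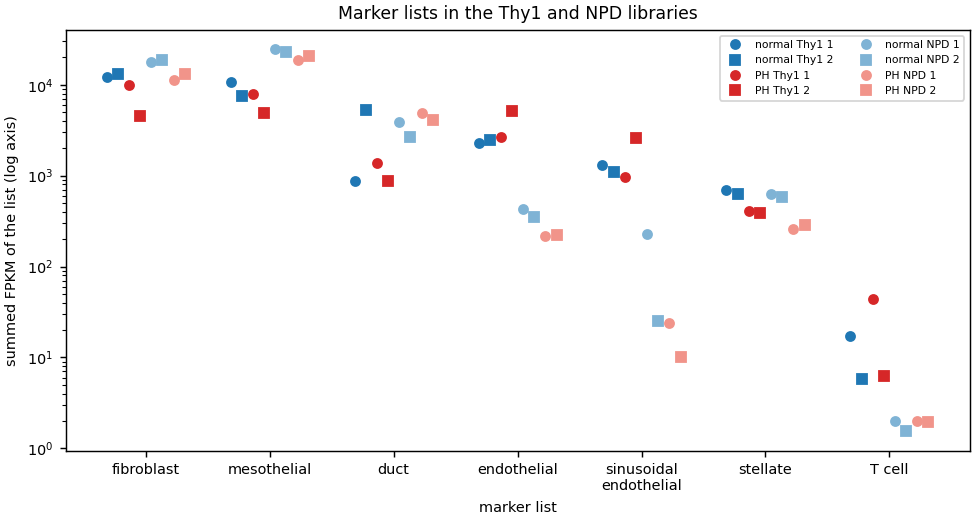
Summed FPKM (log axis) of 7 marker lists in each of the 4 Thy1 libraries (dark symbols) and 4 NPD libraries (pale symbols), with normal liver in blue and liver after PH in red. Both sorts carry fibroblast and mesothelial genes, endothelial genes are higher in every Thy1 library than in every NPD library, and PH Thy1 2 has the lowest fibroblast sum (4592) and the highest endothelial sum (5093) of the 4 Thy1 libraries.

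The 2 libraries of the PH Thy1 group differed in marker sums, and this touches every result on the Thy1 sort after PH. PH Thy1 2 had a fibroblast marker sum of 4592 FPKM, against 9886 in PH Thy1 1 and 12346 and 12999 in normal Thy1. Its endothelial sum was 5093, against 2634 in PH Thy1 1 and 2294 and 2485 in normal Thy1. PH Thy1 1 had the higher Cd3e, at 4.82 against 0.625 FPKM. Over all genes the 2 PH Thy1 libraries correlated at 0.978, and the 2 normal Thy1 libraries at 0.958. With 2 libraries it cannot be said which is the unusual one. The part of these differences in the results below was not tested. The calls on members that are lost without PH Thy1 2 are named. Library 1 of normal cBEC likewise carried more of these genes than the other 3, and library 2 of normal HSC carried Kupffer and endothelial genes (Clec4f 234 against 13.9 FPKM in library 1, Stab2 96.8 against 8.71).

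Sequences upstream of 4 of the genes are shown because the genes differ in their distribution over populations, described next: in normal liver Dpt and Pi16 were far higher in the Thy1 sort than elsewhere, whereas Fbln2 and Entpd2 were at like levels in several sorts. Each is the 250 bases before the annotated start in RefSeq (GRCm38.p6), 5′ to 3′ on the gene's strand, which is plus for all 4. Capitals mark each CG dinucleotide, whose letters read the same on both strands. Of the 10 genes, 5 had a sequence in the RefSeq promoter table used.
Dpt, chr1:164796413-164796662: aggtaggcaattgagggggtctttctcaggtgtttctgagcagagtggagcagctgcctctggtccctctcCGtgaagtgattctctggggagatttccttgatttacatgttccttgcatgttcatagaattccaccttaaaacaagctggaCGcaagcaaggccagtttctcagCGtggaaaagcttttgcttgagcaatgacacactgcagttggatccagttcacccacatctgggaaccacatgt
Pi16, chr17:29318632-29318881: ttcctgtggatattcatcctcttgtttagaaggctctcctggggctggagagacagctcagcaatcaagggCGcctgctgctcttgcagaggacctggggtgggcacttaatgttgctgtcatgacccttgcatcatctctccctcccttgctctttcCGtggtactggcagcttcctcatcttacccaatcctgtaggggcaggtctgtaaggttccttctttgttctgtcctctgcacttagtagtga
Fbln2, chr6:91212514-91212763: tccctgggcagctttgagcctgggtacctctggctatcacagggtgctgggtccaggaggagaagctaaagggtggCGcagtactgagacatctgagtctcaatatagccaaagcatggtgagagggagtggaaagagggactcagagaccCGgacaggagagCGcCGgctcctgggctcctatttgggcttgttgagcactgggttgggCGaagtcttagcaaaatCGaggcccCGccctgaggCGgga
Entpd2, chr2:25395624-25395873: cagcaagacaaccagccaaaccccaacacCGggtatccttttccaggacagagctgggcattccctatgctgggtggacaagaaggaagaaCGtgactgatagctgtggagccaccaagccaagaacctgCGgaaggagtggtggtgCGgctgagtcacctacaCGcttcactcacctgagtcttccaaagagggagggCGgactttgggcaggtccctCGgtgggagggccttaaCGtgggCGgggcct
The Dpt stretch holds 3 CG and the Pi16 stretch 2, whereas the Fbln2 stretch holds 8 and the Entpd2 stretch 9. Over all 32851 promoters the median is 6, and 37.8% of promoters hold as few as Dpt, 29.0% as few as Pi16, 59.7% as few as Fbln2 and 62.2% as few as Entpd2. The fifth gene with a sequence, Cd34, holds 6. These counts describe the letters only, and no methylation was measured.

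The 10 genes did not share a single distribution over the sorted populations (the heatmap of group means). Dpt reached 10 FPKM in every library of the Thy1 sort and of no other population, in both conditions. Mfap4 did so in normal liver only. Clec3b was at that level in the Thy1 and NPD sorts. Thy1, Cd248 and Pi16 were at that level in 3 normal populations each, and Cd34, Entpd2, Eln and Fbln2 in 4 each. None was at that level in hepatocytes, where the highest value of any of the 10 in any library was 2.71 FPKM, for Entpd2.

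**Figure D2:**
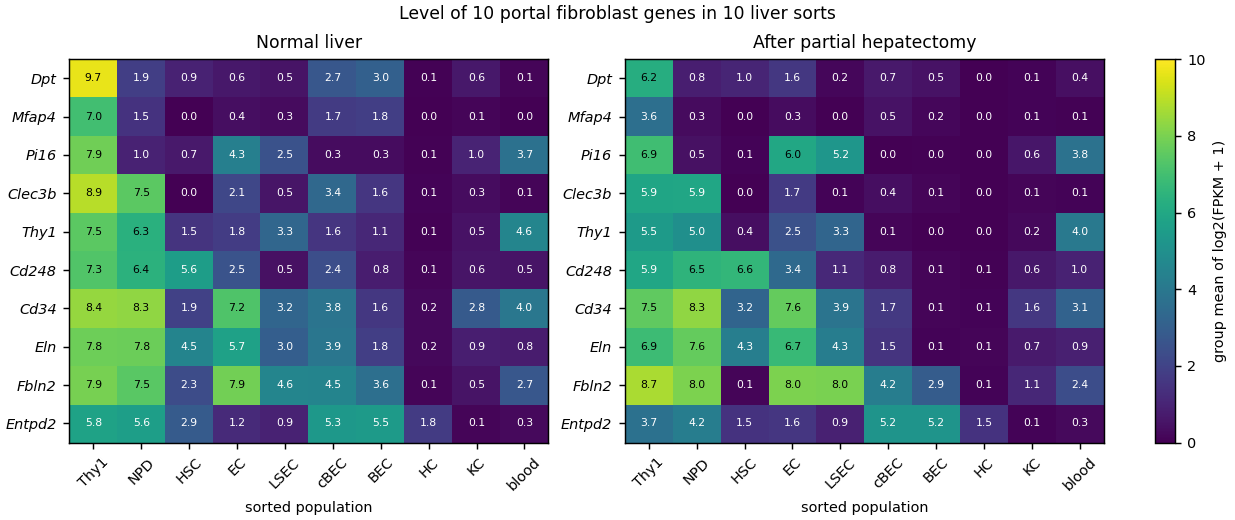
Group mean of log2(FPKM + 1) for the 10 genes (rows) in the 10 sorted populations (columns), in normal liver and after PH. Dpt and Mfap4 are highest in the Thy1 column in both conditions. Fbln2 and Cd34 are high in the Thy1, NPD and EC columns, and Fbln2 is also high in the LSEC column after PH. Entpd2 is high in the Thy1, NPD, cBEC and BEC columns of normal liver.

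Surface proteins come first. Thy1 is the gene the sort is named for, so its level there is a description with no test. It stood at 377 and 85.7 FPKM in the normal Thy1 libraries, at 86.5 and 74.6 in normal NPD, and at 23.2 and 22.2 in normal blood. The lower Thy1 library therefore overlapped the NPD libraries. In normal HSC the mean was 2.16 FPKM, in EC 2.44 and in hepatocytes 0.05. After PH it was 54.6 and 33.4 in the Thy1 sort and 27.3 and 33.7 in NPD, which again overlapped.

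Cd34, a sialomucin of endothelial and stromal progenitor cells, stood at 305 and 382 FPKM in normal Thy1 libraries, 365 and 280 in NPD, and 126 and 181 in EC. It was 2.95 and 2.63 in HSC. Cd34 was thus high in 3 sorts and low in stellate cells, a difference of 6.5 ± 0.77 (SE) on the log2(FPKM + 1) scale between Thy1 and HSC (limma adjusted p = 7.51e-09).

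Cd248 (endosialin), a surface protein of fibroblasts and pericytes, was the member with the highest level in HSC. Normal Thy1 libraries had 157 and 153 FPKM, NPD 98.1 and 71.8, and HSC 44.7 and 48.9, with no overlap between these 3. EC had 2.88 and 7.81. The Thy1 sort exceeded HSC by 1.71 ± 0.58 (SE; limma adjusted p = 0.0206), the smallest of the Thy1 differences from HSC, and the call was lost in each of the fits that left out 1 Thy1 or HSC library (adjusted p 0.0533 to 0.0915) and with a pseudocount of 0.1 (0.170).

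Entpd2, an ectonucleotidase that degrades extracellular ATP and is used as a marker of portal fibroblasts, stood at 46.2 and 61.4 FPKM in normal Thy1 libraries and 49.6 and 45.2 in NPD. The biliary sorts were close to these levels. The 4 normal cBEC libraries, at 38.1 to 41.8, lay just below every Thy1 and NPD library, and the 4 BEC libraries, at 36.5 to 49.3, overlapped them. HSC had 7.94 and 4.89. The Thy1 sort did not differ detectably from NPD, cBEC or BEC in this gene, with differences of 0.17, 0.41 and 0.31 (log2, SE 0.53, 0.46 and 0.46, limma adjusted p = 0.989, 0.570 and 0.697).

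Pi16, a secreted peptidase inhibitor family protein that marks adventitial fibroblasts, differed between the Thy1 and NPD sorts. It stood at 185 and 286 FPKM in normal Thy1 libraries and at 2.23 and 0.187 in NPD. The next highest normal population was EC, with 12.3 and 28.9, and blood followed at a mean of 12.4. HSC were at 0.616 ± 0.038 (SD, n = 2).

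Among the matrix proteins, Dpt (dermatopontin, which binds decorin and collagen) had the highest level of the 10, at 610 and 1072 FPKM in the normal Thy1 libraries. NPD had 6.37 and 0.794, and HSC averaged 0.968. The highest library outside the Thy1 sort was normal cBEC 1 at 53.3, and the other 3 cBEC libraries ranged from 0 to 7.12. Mfap4, a microfibril-associated protein of elastic fibres, followed the same order, at 112 and 135 FPKM in normal Thy1 libraries, 2.93 and 0.922 in NPD and listed at 0 in both HSC libraries. Its highest library elsewhere was again normal cBEC 1, at 21.3.

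Clec3b (tetranectin, a secreted plasminogen-binding lectin) stood at 388 and 610 FPKM in normal Thy1 libraries and 255 and 124 in NPD. It was listed at 0 in all 5 HSC libraries of both conditions, as was Mfap4, so no fold against HSC is given for either. EC had 0.431 and 12.7. Unlike Dpt and Mfap4, Clec3b was thus abundant in both the Thy1 and the NPD sort.

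Eln (elastin) and Fbln2 (fibulin-2, which binds elastin and fibronectin) were the broadest of the matrix genes. Eln was 254 and 189 FPKM in normal Thy1 libraries, 270 and 170 in NPD, 28.4 and 94.1 in EC and 12.6 and 36.4 in HSC. Fbln2 was 237 and 255 in Thy1, 170 and 179 in NPD and 147 and 366 in EC, but 6.21 and 2.40 in HSC. EC overlapped the Thy1 sort for Fbln2 but lay below the Thy1 and NPD sorts for Eln. Stellate cells were the lowest of these sorts for Fbln2 and overlapped EC for Eln.

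**Figure D3:**
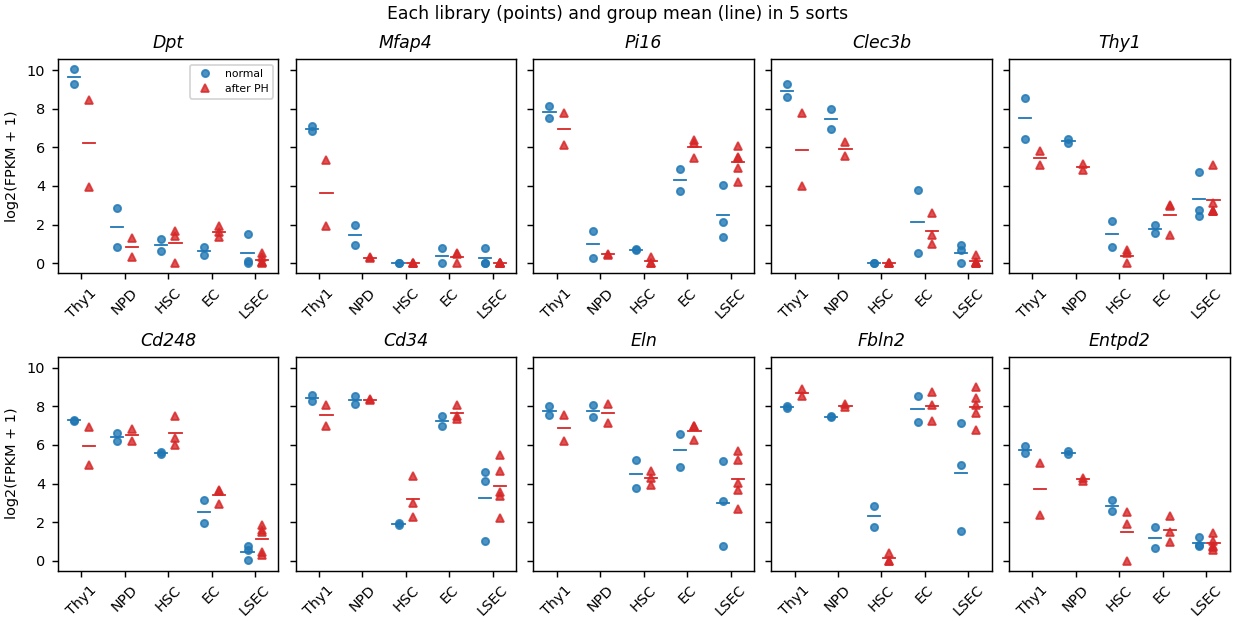
log2(FPKM + 1) of the 10 genes in each library (points) of 5 sorts, with group means as lines, normal liver in blue circles and liver after PH in red triangles. Among libraries of normal liver, those of the Thy1 sort lie above every other library shown for Dpt, Mfap4, Pi16, Clec3b and Cd248, while for Cd34, Eln, Entpd2 and Thy1 they overlap NPD and for Fbln2 they overlap EC. Among libraries after PH, those of the Thy1 sort lie above every other library shown for Dpt and Mfap4 only. The lower PH Thy1 library lies below an EC library for Pi16 (67.8 against 80.9 FPKM) and an NPD library for Clec3b (14.9 against 77.5). For Cd248, 1 PH HSC library (181 FPKM) lies above every Thy1 library. Such separation was not counted over all genes.

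Compared with stellate cells of normal liver, the Thy1 sort was higher in all 9 genes other than Thy1 by limma (adjusted p under 0.05), where 27.2% of the 16527 genes tested were called higher. The differences ran from 1.71 for Cd248 to 8.71 for Dpt on the log2 scale over the 7 genes not listed at 0 in HSC, with a median of 5.64 against 0.33 over all genes tested. Fitted on the Thy1 and HSC libraries alone, all of them were still called, with adjusted p between 0.00295 and 0.0335. Eln differed by 3.28 ± 0.83 (SE, adjusted p = 0.00173), a call lost without HSC library 1 (0.0575). Endothelial, mesothelial and duct markers also differed between these sorts. Of the genes tested, 14 of 14 mesothelial, 11 of 12 duct and 9 of 14 endothelial genes were called higher in the Thy1 sort. Krt19 is in both the mesothelial and the duct list. The part of these markers in the result was not tested.

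Compared with NPD of normal liver, only Pi16, Dpt and Mfap4 of the 9 were called by limma, all higher in the Thy1 sort, where 7.1% of all genes were called higher. The differences were 6.88 ± 0.56 for Pi16 (SE; adjusted p = 6.45e-12), 7.80 ± 0.96 for Dpt (9.41e-08) and 5.50 ± 0.73 for Mfap4 (4.36e-07). These 3 were also the 3 called in the fit on the 4 libraries alone. The other 6 differed by 0.03 to 1.45 on the log2 scale. Clec3b had the largest of those, at 1.45 ± 0.68 (SE, adjusted p = 0.247), with both Thy1 libraries above both NPD libraries. Endothelial genes moved with this comparison, since 12 of 14 were higher in the Thy1 sort. Pecam1 was 251 and 246 there against 15.3 and 1.33 in NPD. In the EC sort itself, Dpt stood at 0.351 and 0.773 FPKM, Mfap4 at 0 and 0.713 and Pi16 at 12.3 and 28.9. The part of the endothelial genes in the result was not tested.

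Against EC of normal liver, 6 of the 9 were higher in the Thy1 sort (18.7% of all genes were called higher). Fbln2 differed by 0.08 ± 0.82 (SE, adjusted p = 1), Cd34 by 1.17 ± 0.77 (0.338) and Eln by 2.06 ± 0.83 (0.0700), and these 3 were not called by limma. Against cBEC (16.4% of all genes called higher) and BEC (17.1%), 8 of 9 were higher in the Thy1 sort, with Entpd2 the exception both times. Against LSEC (22.4%), HC (57.9%), KC (23.2%) and blood (29.1%) of normal liver, all 9 were higher, although Fbln2 against LSEC was not called on the compared libraries alone (adjusted p = 0.171). These comparisons share the Thy1 libraries and are not independent of each other.

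**Figure D4:**
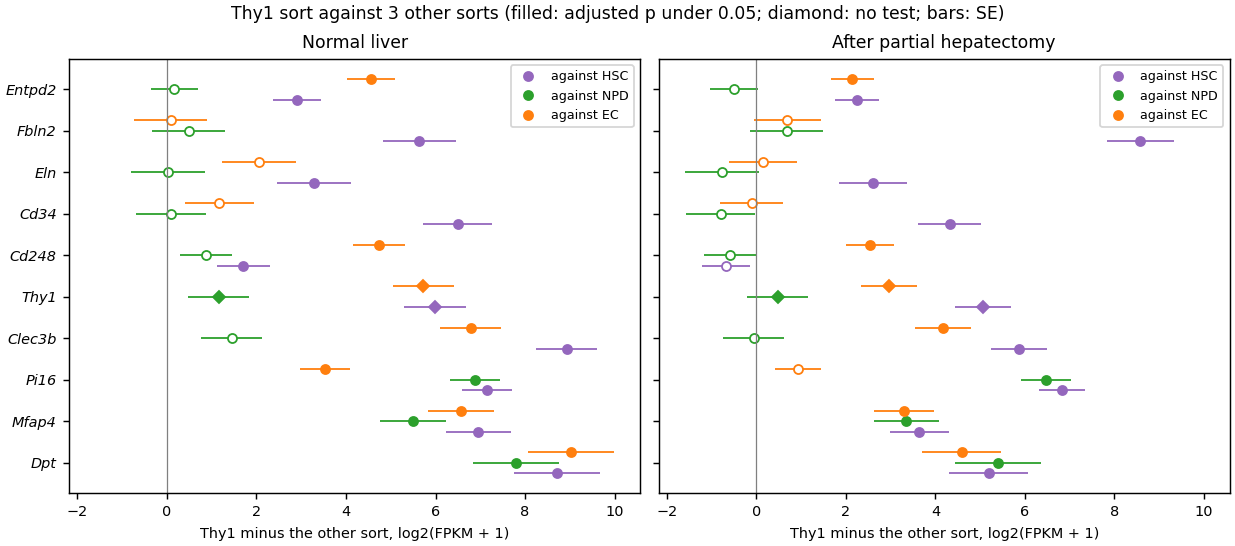
Difference of the Thy1 sort from HSC, NPD and EC on the log2(FPKM + 1) scale for each gene, with SE bars, in normal liver and after PH. Filled circles passed an adjusted p of 0.05, open circles did not, and diamonds mark the Thy1 gene, for which no test was made; Mfap4 and Clec3b are listed at 0 in HSC, so their purple points equal their Thy1 level, and the largest green differences are those of Pi16, Mfap4 and Dpt.

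A wider set of portal and adventitial fibroblast genes was read the same way, from lists chosen with earlier results of these data known. Of 20 such genes, 13 were higher and 1 was lower in normal Thy1 libraries than in HSC, where 27.2% of all genes were called higher and 6.28% lower, with a median difference of 4.73 against 0.33 over all genes. Igfbp6, an IGF-binding protein, differed by 9.65 ± 0.76 (SE; limma adjusted p = 2.09e-13), from a mean of 1171 FPKM in the Thy1 sort and 0.554 in HSC. The complement gene C3 was at a mean of 3554 in the Thy1 sort and listed at 0 in both normal HSC libraries. C3 is also abundant in hepatocytes (mean 2682 FPKM in normal HC), and transcripts abundant there are often listed at 0 in other sorts of this table. Restricted to genes under 10 FPKM in hepatocytes, 9 of the list were higher and 0 lower. That restriction removes C3 and any other listed gene above the limit, so these counts are not out of 20. The share of all genes called under it is not given, so the counts have no background beside them. The chemokine Cxcl12 was the 1 lower gene, at 90.7 against 1958 FPKM (a difference of -4.45 ± 0.97, SE, adjusted p = 0.000299).

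Elastic fibre genes other than the members were divided. Of 19, 8 were higher and 4 lower in the Thy1 sort than in HSC of normal liver. For this and the next lists, the shares over all genes in the fit of all groups were 27.2% higher and 6.28% lower. Mfap5, a microfibril glycoprotein, averaged 159 FPKM against 0 in both HSC libraries, and Fbln1 (fibulin-1) 180 against 4.47. Both genes are in the fibroblast list too. Emilin1, an elastin interface protein, went the other way, at 46.4 against 558 FPKM (-3.52 ± 0.59, SE, adjusted p = 6.11e-06), as did the crosslinking enzyme Loxl4 at 7.44 against 33.3. Fitted on these 4 libraries alone, 5 were higher and 2 lower, with no share over all genes given for that fit. Of 20 collagen and other matrix genes, 4 were higher, a share under that of all genes, and 7 lower. The small proteoglycan Fmod stood at a mean of 356 FPKM against 0 in both HSC libraries and Col1a1, a chain of type I collagen, at 377 against 54.99, while Postn (periostin) stood at 66.0 against 705 and Prelp at 387 against 1861. On the 4 libraries alone, 2 of the matrix list were higher and 3 lower, again with no share over all genes given. The stellate list was lower in 19 of 20 genes, led by Colec11 (19.2 against 2731 FPKM) and Lrat (2.10 against 417).

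The same fibroblast list against NPD of normal liver gave 8 of 20 higher and 0 lower, where 7.1% of all genes were called higher. These were Sfrp1, Cxcl12, Pdgfra, Col15a1, Ly6a, Gsn, Lum and Serpinf1, named because they are the whole set called. Gsn (gelsolin) averaged 2313 FPKM in the Thy1 sort against 55.7 in NPD, and Lum (lumican) 197 against 3.89. The summed fibroblast list was nonetheless higher in NPD (17710 and 18542 FPKM) than in the Thy1 sort (12346 and 12999). C3, which the mesothelial list also holds, made up 8613 and 10534 of that sum in NPD and 4806 and 2303 in the Thy1 sort. Without C3 the sums overlapped, at 9097 and 8008 in NPD and 7540 and 10696 in the Thy1 sort.

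After PH, 5 members were lower in the Thy1 sort than in normal liver by limma on all groups, 0 were higher, and 7.5% of all genes were called lower. The 5 were Thy1, Entpd2, Dpt, Mfap4 and Clec3b. None of the 5 calls stood with a pseudocount of 0.1 (0 called) or without PH Thy1 2 (0 called, and 1, Mfap4, with normal cBEC 1 left out as well). Without normal Thy1 2, Dpt (adjusted p = 0.114) and Entpd2 (0.0771) were not called. On the Thy1 libraries alone 0 members were called (lowest limma adjusted p = 0.238). That fit also recovered none of the changes put into simulated data, so its 0 calls do not show that these genes were unchanged. The simulated spread was the one pooled over all groups, not that of these genes in the PH Thy1 libraries.

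Dpt went from 610 and 1072 FPKM in normal liver to 354 and 14.5 after PH, a difference of -3.45 ± 0.96 (SE, limma adjusted p = 0.0138). Both PH libraries were below both normal libraries, but they differed from each other by 24.4-fold. Mfap4 went from 112 and 135 to 40.3 and 2.77 (-3.31 ± 0.73, adjusted p = 0.00169) and Clec3b from 388 and 610 to 215 and 14.9 (-3.06 ± 0.68, adjusted p = 0.00193). For each of these 2 the PH libraries differed by 14.5-fold. Without PH Thy1 2, the differences were -1.19 for Dpt, -1.59 for Mfap4 and -1.17 for Clec3b (adjusted p = 0.726, 0.331 and 0.461, with the lone library assumed to vary like other groups). Without PH Thy1 1 they were -5.71, -5.04 and -4.94.

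The shared estimate of spread understates that of these genes in the PH Thy1 group. The SD of log2(FPKM + 1) between the 2 PH Thy1 libraries was 3.19 for Dpt, 2.44 for Mfap4 and 2.67 for Clec3b. Pooled over all 20 groups, many of them near 0 for these genes, it was 1.001, 0.76 and 0.71. The adjusted p-values from all groups may thus be too small for them.

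Entpd2 went from 46.2 and 61.4 FPKM to 32.5 and 4.25 in the Thy1 sort (-2.03 ± 0.53, SE, limma adjusted p = 0.00806; -0.69 without PH Thy1 2, adjusted p = 0.682). Thy1 itself went from 377 and 85.7 to 54.6 and 33.4 (-2.05 ± 0.68, adjusted p = 0.0435). That call was lost without PH Thy1 2 (-1.70, adjusted p = 0.356), without PH Thy1 1 (-2.40, 0.0613) and without normal Thy1 1, the higher normal library (-0.99, 0.550). A sort named for Thy1 is taken to gate on that protein, so the level of its mRNA in sorted cells need not be its level in the liver.

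The remaining 5 members were not called in the Thy1 sort. Cd248 went from 157 and 153 to 119 and 30.3 FPKM (-1.35, adjusted p = 0.136, and -2.32, 0.0187 without PH Thy1 1), Cd34 from 305 and 382 to 271 and 127 (-0.88, 0.557), and Eln from 254 and 189 to 185 and 72.6 (-0.91, 0.573). For all 3, both PH libraries were below both normal ones. The share of all genes without overlap was not counted, so this describes the libraries only. Pi16 overlapped, at 185 and 286 before and 219 and 67.8 after (-0.91, limma adjusted p = 0.345). Fbln2 was the 1 member with a higher mean after PH, at 237 and 255 before and 484 and 363 after, with no overlap and a difference of 0.77 ± 0.82 (SE, adjusted p = 0.651). PH Thy1 2 was the lower of the PH libraries for all 10 genes, by 1.33-fold for Fbln2 up to 24.4-fold for Dpt.

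Among other fibroblast genes in the Thy1 sort after PH, 8 of 20 were lower and 0 higher (7.5% and 3.91% of all genes), with a median of -1.52 against -0.06 over all genes. Sfrp1, a secreted Wnt inhibitor, went from a mean of 60.4 to 11.5 FPKM (-3.09 ± 0.57, SE, limma adjusted p = 0.000201) and Gsn from 2313 to 736 (-2.84 ± 0.74, 0.00835). Of the elastic fibre list 6 were lower, with Efemp1 (-2.37) and Fbln1 (-2.24) at the head, and 1 was higher, Emilin1, from 46.4 to 186 FPKM (1.89 ± 0.59, adjusted p = 0.0295). Of the collagen and matrix list 4 were lower, led by Ogn (-2.50) and Fmod (-2.30). Of the stellate list Nes (nestin, 2.58) and Hgf (hepatocyte growth factor, 2.15, from a mean of 4.92 to 26.3 FPKM) were higher and Hhip (-1.32) was lower. Shares over all genes are not given for the counts that follow. Without PH Thy1 2, the counts were 0 lower and 0 higher for the fibroblast list, 0 lower and 2 higher for the elastic list, 1 lower for the collagen list and 1 lower and 0 higher for the stellate list. 

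**Figure D5:**
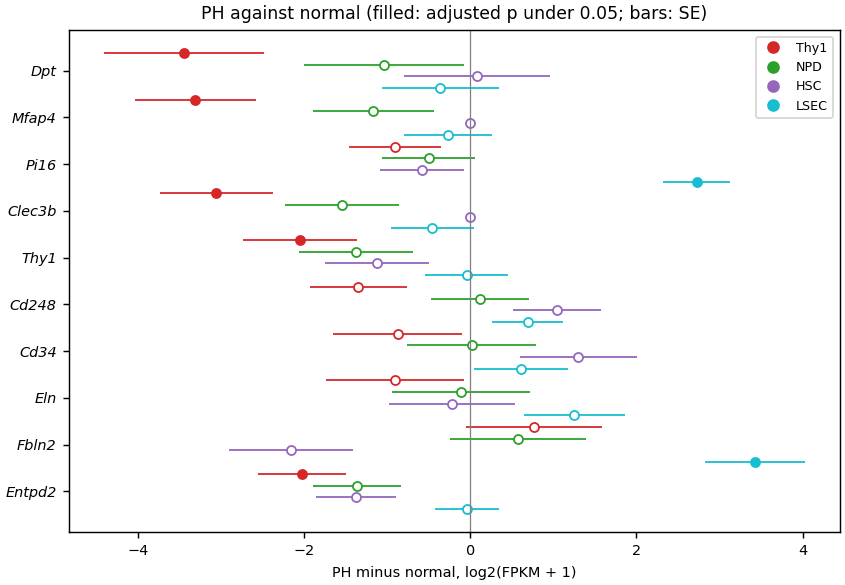
Change after PH (PH minus normal, log2(FPKM + 1), SE bars) of each gene in the Thy1, NPD, HSC and LSEC sorts; filled circles passed an adjusted p of 0.05 in the fit of all groups. Dpt, Mfap4, Clec3b, Thy1 and Entpd2 are filled and below 0 in the Thy1 sort, and Pi16 and Fbln2 are filled and above 0 in LSEC.

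In the NPD sort 0 of the 10 were called by limma after PH, where 11.7% of all genes were called and 3840 of 16527 had an unadjusted p under 0.05. Thy1 went from 86.5 and 74.6 to 27.3 and 33.7 FPKM (-1.38 ± 0.68, SE, adjusted p = 0.218) and Entpd2 from 49.6 and 45.2 to 18.7 and 16.8 (-1.37 ± 0.53, 0.0914). In both cases the groups did not overlap and the 2 libraries of each group were close. Overlap was not counted over all genes. In the fit on NPD libraries alone both genes were called (limma adjusted p = 0.0162 and 0.0119). Clec3b went from 255 and 124 to 46.6 and 77.5 (-1.55, adjusted p = 0.152). Cd34 (365 and 280 before, 317 and 330 after), Eln (270 and 170 before, 142 and 276 after) and Cd248 (98.1 and 71.8 before, 72.4 and 114 after) overlapped.

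In HSC 0 of the 10 were called by limma after PH, where 11.9% of all genes were called and 4095 of 16527 had an unadjusted p under 0.05. Cd248, the member most abundant in stellate cells, went from 44.7 and 48.9 to 80.5, 63.3 and 181 FPKM (1.04 ± 0.53, SE, adjusted p = 0.221). Fbln2 went from 6.21 and 2.40 to 0, 0 and 0.344 (-2.17 ± 0.75, 0.0512), and Entpd2 from 7.94 and 4.89 to 2.77, 0 and 4.79 (-1.38 ± 0.48, 0.0553). None of these 3 overlapped between conditions, although for Entpd2 the nearest libraries were 4.89 and 4.79 FPKM. The share of all genes without overlap was not counted, so this describes the libraries only. Fbln2 was called with a pseudocount of 0.1 (adjusted p = 0.000579) and Entpd2 with the replicate number as a block (0.0410), without PH HSC 1 (0.0341) or without PH HSC 3 (0.00750), but the Entpd2 difference was -0.64 (0.483) without PH HSC 2, where the gene is listed at 0, and neither gene was called in the fit on HSC libraries alone (lowest adjusted p of any member 0.457). In the same comparison 9 of 14 endothelial and 6 of 12 Kupffer cell genes were lower after PH (5.93% of all genes were called lower), and their part in these values was not tested.

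After PH the Thy1 sort was higher than HSC in 8 of 9 members (24.9% of all genes called higher). The exception was Cd248, where HSC had 80.5, 63.3 and 181 FPKM and the Thy1 sort 119 and 30.3 (-0.69 ± 0.53, SE, limma adjusted p = 0.362). On these 5 libraries alone, Entpd2 (0.230) and Mfap4 (0.0575) were not called. Without PH Thy1 1, Entpd2 (0.235), Eln (0.166) and Mfap4 (0.0511) were not called. Against NPD after PH, Pi16, Dpt and Mfap4 were again the 3 called (7.56% of all genes called higher). Pi16 differed by 6.48 ± 0.56 (SE; adjusted p = 2.02e-11), from 219 and 67.8 FPKM against 0.352 and 0.410, and it alone was called on the 4 libraries (Dpt 0.0796, Mfap4 0.119). Without PH Thy1 1, Mfap4 was not called (0.184), whereas Entpd2 (-1.83, 0.0162) and Clec3b (-1.95, 0.0433) were called lower in the Thy1 sort. Dpt and Mfap4 were the only 2 members whose lowest PH Thy1 library (14.5 and 2.77 FPKM) exceeded every PH library of the other sorts (at most 2.78 and 0.801). How many of all genes do so was not counted, so this describes the libraries only.

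Against the other populations after PH, 5 of 9 were higher in the Thy1 sort than in EC (9.85% of all genes called higher) and 8 of 9 than in LSEC (15%). Without PH Thy1 1, Dpt, Cd248, Entpd2 and Mfap4 were no longer called against EC (adjusted p 0.331 to 0.804), nor Entpd2, Mfap4, Eln and Pi16 against LSEC (0.0583 to 0.816). On the compared libraries alone, 0 of the 5 were called against EC (0.0815 to 0.187), and Pi16 was not called against LSEC (0.0662). Pi16 in EC (80.9, 74.6 and 42.5 FPKM) then overlapped the Thy1 sort, with a difference of 0.93 ± 0.51 (SE, limma adjusted p = 0.308). Against cBEC (18.4% of all genes called higher, 15.2% lower) and BEC (18.6% and 15.4%), 8 were higher and Entpd2 was lower in the Thy1 sort, with a difference of -1.45 in both (SE 0.53, adjusted p = 0.0298 and 0.0300). For Entpd2, cBEC stood at 41.9 and 29.7 FPKM and BEC at 37.6 and 32.9. Without PH Thy1 2 those differences were -0.11 in both (adjusted p = 0.967 and 0.964), and without either cBEC library or either BEC library neither was called (0.0501 to 0.186). Mfap4 was not called against cBEC or BEC without PH Thy1 1 (0.186 and 0.0923). Against HC (54.8%), KC (27.5%) and blood (13.6%), all 9 were higher. Without PH Thy1 1, Entpd2 was not called against HC (0.109), nor Mfap4 against KC (0.0516) or blood (0.104). On the compared libraries alone, Entpd2 (0.0730), Dpt (0.0700) and Mfap4 (0.113) were not called against blood, nor Entpd2 (0.192 and 0.221) or Mfap4 (0.0512 and 0.0546) against cBEC and BEC.

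Whether the PH response itself differed between sorts was tested as a difference of differences. Between Thy1 and HSC, Mfap4 (-3.31 ± 0.99, SE, limma adjusted p = 0.0288) and Clec3b (-3.06 ± 0.93, 0.0314) were called lower, as were 5.12% of all genes. Both are listed at 0 in every HSC library, so these values are the changes in the Thy1 sort alone, and without PH Thy1 2 neither was called (0.441 and 0.542). Cd248, with opposite signs in the 2 sorts, differed by -2.39 ± 0.79 (adjusted p = 0.0517). Between Thy1 and NPD 0 members were called by limma, where 1.31% of all genes were called and 1657 of 16527 had an unadjusted p under 0.05.

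Outside these sorts, the clearest changes after PH were in LSEC. Pi16 went from 3.45, 1.53 and 15.4 FPKM in the 3 normal libraries to 17.4 at the lowest, 42.9 at the median and 66.4 at the highest of 5 after PH, with no overlap and a difference of 2.72 ± 0.41 (SE, limma adjusted p = 1.0e-05). Fbln2 went from 30.4, 1.93 and 140 to 108, 264, 515 at the lowest, median and highest (3.43 ± 0.60, adjusted p = 0.000117), with 1 PH library inside the normal range. On LSEC libraries alone Fbln2 was not called (0.0820). These were 2 of 10 members called, both higher, where 3.63% of all genes were called higher. In EC 0 of 10 were called (1.24% of all genes, 1511 with unadjusted p under 0.05), with Pi16 at 12.3 and 28.9 before and 80.9, 74.6 and 42.5 after. In cBEC Clec3b was lower after PH, from 5.97 to 20.3 in 4 libraries to 0.709 and 0 (-3.00 ± 0.59, SE, limma adjusted p = 0.00161), the 1 call there (2.55% of all genes called lower). It was not called without PH cBEC 2 (0.124) or on cBEC libraries alone (0.136). In BEC (2.11% of all genes called, 1582 with unadjusted p under 0.05), HC (7.22%, 2830), KC (18%, 4584) and blood (40.2%, 7671), 0 members were called by limma.

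Likeness over the 20 group means of log2(FPKM + 1) was read as a description. Dpt and Mfap4 had a Pearson r of 0.985 with each other, the highest of the 45 pairs, and Cd34 and Eln had 0.910. The lowest was -0.11, between Entpd2 and Pi16. Outside the list, Dpt was nearest to Cilp (0.976), Aspn and Penk, Mfap4 to Cilp (0.981), Lgi3 and Aspn, and Clec3b to Mfap5 (0.987), Osr1 and Vit. Cd248 was nearest to Adamtsl5 (0.980), Mrc2 and Ddr2, and Entpd2 to Plce1 (0.982), Sox6 and Fam13c. Pi16 was nearest to Ace (0.939), Ly6c1 and Stc1, Eln to Plat (0.952), Slc2a10 and Htra1, and Fbln2 to Flrt2 (0.967), Megf6 and Mras. Cd34 was nearest to Uchl1 (0.926), Zfp521 and Flrt2, and Thy1 to Slc10a6 (0.880), Nrgn and Zfp521. These r describe 20 means that share libraries and sorts, and carry no test.

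In the table's coordinates, taken as mm9 from the submitters' processing notes, the transcripts used lie at chr9:43851466-43856662 for Thy1 (plus strand), chr1:166726862-166754397 for Dpt (plus), chr17:29455826-29465847 for Pi16 (plus) and chr11:61298945-61302206 for Mfap4 (plus). Eln lies at chr5:135178464-135223193 (minus), Fbln2 at chr6:91162757-91222534 (plus) and Entpd2 at chr2:25251393-25256843 (plus). Cd34 lies at chr1:196765014-196787486 (plus), Cd248 at chr19:5068077-5070639 (plus) and Clec3b at chr9:123060063-123066550 (plus). Cd34 and Fbln2 have 2 transcripts each in the table and the other 8 genes have 1.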

How the data were processed

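RNA from FACS-sorted mouse liver cells, lysed in TRIzol, was made into Illumina libraries, per the labels' protocols. The authors deposited one table of FPKM (its name gives the unit), with 36141 RefSeq transcript rows and a column for each of the 55 libraries; 0 other sample columns were present. The submitters' processing notes name CASAVA 1.8.2, Bowtie 1.0.0 and mm9, without roles; the counting tool is not given in the sources used here. FPKM hide the read depth, so no counting interval is given. Hepatocyte columns are rounded to 2 decimals. Library sums ran from 624726 to 1203200 FPKM, and replicate correlations from 0.919 to 0.996.

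Groups follow the titles; PH cBEC 1 carries the treatment tag normal and was kept as titled. A symbol with several rows was represented by its most abundant one on average. All 55 libraries in 20 groups were fitted at once with limma 3.58.1 (R 4.3.3) on log2(FPKM + 1), with trend and robust moderation, two-sided, with Benjamini-Hochberg adjustment over 16527 genes (at least 1 FPKM in at least 2 libraries) and a threshold of 0.05. There were 30 contrasts: 18 of Thy1 against other sorts, 10 of PH against normal and 2 differences of responses. The scale understates changes of low genes. On simulated data for PH against normal in Thy1, the fit of all groups recovered most changes but made more false calls than its threshold allows, and the fit on Thy1 libraries alone recovered none. The 10 members and 16 gene lists were chosen with earlier results of these data known. All members are named; from 4 lists the 2 largest rises and 2 largest falls with adjusted p under 0.05, and for each member the 3 nearest genes. Other genes named, beyond markers, were chosen after their values were seen. Alternatives were a pseudocount of 0.1, no filter, a filter on the compared groups, quantile and upper-quartile scaling, a fit on the compared groups only, a fit without hepatocytes, only genes under 10 FPKM in hepatocytes, the mean over rows of a symbol, a replicate block, PH cBEC 1 left out and each library left out. Leaving out PH Thy1 2 and normal cBEC 1 together was chosen after seeing the data. Plots were made in matplotlib 3.10.9 under Python 3.11.15.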

Additional observations from a re-analysis of the deposited data

Results flagged for a closer look

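Normal cBEC 1 stood far from the other 3 normal cBEC libraries in 7 of the 10 genes. It had 53.3 FPKM of Dpt (others 0 to 7.12), 21.3 of Mfap4 (0.0223 to 1.56), 55.9 of Eln (6.08 to 12.4) and 54.8 of Fbln2 (12.4 to 17.8). It also had 43.4 FPKM of Cd34 (8.07 to 9.42), 17.9 of Cd248 (1.98 to 2.999) and 8.21 of Thy1 (0.573 to 1.61). Entpd2, which all cBEC libraries share, did not stand apart there, at 38.6 FPKM. PH LSEC 2 had 32.7 FPKM of Thy1, against 5.47 to 7.83 in the other 4 PH LSEC libraries. A library was called apart where its gap to the nearest of the others, as a share of the group's range, passed Dixon's 95% critical value, which chance does in about 1 in 20 groups. Only groups of at least 4 libraries were examined, so no library of the Thy1, NPD, HSC or EC sorts could be called apart. Of 27 combinations of gene and group examined, 8 had a library apart, and 7 of these are the same library, so they are not independent.

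The PH response differed between the Thy1 and HSC sorts for Mfap4 (-3.31 on the log2 scale) and Clec3b (-3.06), by limma's interaction contrast. Both genes are listed at 0 in all HSC libraries, and both differences shrink to -1.59 and -1.17 without PH Thy1 2.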

How the results depend on the processing

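Of 149 member results called by limma, 114 were called under every alternative run, and 0 changed sign. The Thy1 gene is left out of counts for the Thy1 sort against other sorts.

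Members called were 9 in Thy1 against HSC of normal liver (7 to 8 with 1 library left out), 8 after PH (5 to 8), 3 against NPD of normal liver (3 throughout) and 3 after PH (3 to 4, and 1 on the compared groups only). Against the other 7 sorts in both conditions 116 of 126 were called (103 to 117). For PH against normal in Thy1 the count was 5, with 0 at pseudocount 0.1, 0 on the compared groups only, 1 without PH Thy1 2 and normal cBEC 1, and 0 to 5 with 1 library left out (3 without normal Thy1 2). In HSC it was 0, with 1 at pseudocount 0.1, 2 with the filter on the compared groups, 2 without those 2 libraries and 0 to 1 with 1 left out. In NPD it was 0, with 1 by quantile normalization, 2 on the compared groups only and 3 without the 2 libraries. In the other 7 sorts it was 3, with 8 at pseudocount 0.1, 5 on the compared groups only, 5 without the 2 libraries and 2 to 7 with 1 left out (5 without normal cBEC 2, 7 without normal cBEC 3). For the difference of responses between Thy1 and HSC it was 2, with 1 at pseudocount 0.1, 3 by quantile normalization, 3 with the filter on the compared groups, 3 for genes under 10 FPKM in hepatocytes, 0 on the compared groups only, 0 without hepatocytes, 0 without the 2 libraries and 0 to 4 with 1 left out (0 without either normal HSC library, PH Thy1 2 or normal Thy1 2). Between Thy1 and NPD it was 0 (0 to 3 with 1 left out, 3 without PH Thy1 1). The share of all genes called under each alternative is not given here, and the causes were not tested.

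Of 23 pairs of same-numbered normal and PH libraries of a sort, 4 deviated together with a correlation above 0.1 (-0.63 to 0.45). In the Thy1, NPD and blood sorts both pairs give the same value, so the pairs are not all separate. Same-numbered libraries of different sorts were not compared, so pairing across sorts is unknown. No pairing was assumed in the fit of all groups. With a replicate block, PH against normal gave 4 members in Thy1 (Thy1 at adjusted p = 0.0575), 1 in HSC and 0 in NPD, and the other counts of called members did not change.

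Differences that changed sign were not called in the fit of all groups. At pseudocount 0.1 these were Dpt in HSC after PH (-0.43) and the difference of responses between Thy1 and HSC for Thy1 (0.39), Entpd2 (0.34) and Pi16 (1.32). By quantile normalization they were Dpt in HSC (-0.075), Cd248 in NPD (-0.014) and Clec3b for Thy1 against NPD after PH (0.012). Without PH Thy1 2 and normal cBEC 1 they were Cd248 for Thy1 against HSC (0.28), and Cd248 (0.38), Entpd2 (0.84) and Clec3b (1.82) for Thy1 against NPD, all after PH, and the difference of responses for Entpd2 (0.68) and Pi16 (0.52) against HSC and for Entpd2 (0.67), Pi16 (0.44) and Clec3b (0.38) against NPD. With 1 library left out, PH against normal in NPD ranged over -0.21 to 0.44 for Cd248, -0.18 to 0.21 for Cd34, -0.59 to 0.36 for Eln and -1.23 to 0.22 for Pi16, and in HSC over -0.23 to 0.59 for Dpt and -0.95 to 0.50 for Eln. Thy1 against NPD in normal liver ranged over -0.10 to 0.29 for Cd34, -0.30 to 0.36 for Eln and -0.033 to 0.37 for Entpd2, and after PH over -1.56 to 0.38 for Cd248, -1.95 to 1.82 for Clec3b and -1.83 to 0.84 for Entpd2. Thy1 against HSC after PH ranged over -1.65 to 0.28 for Cd248. The difference of responses against HSC ranged over -1.41 to 0.040 for Eln, -1.99 to 0.68 for Entpd2, -1.16 to 0.52 for Pi16 and -1.99 to 0.14 for Thy1, and against NPD over -3.39 to 0.38 for Clec3b, -2.002 to 0.67 for Entpd2, -0.016 to 0.40 for Fbln2, -1.24 to 0.44 for Pi16 and -1.73 to 0.39 for Thy1.

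Quantile normalization moved the median difference of all genes by -0.33 for Thy1 against HSC in normal liver. The depth is unknown, so for genes at or near 0 FPKM no limit of detection can be given.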
